A study of Homo sapiens with 4 samples.

Results

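Ubiquitin-conjugating E2 enzymes are described here as the 37 protein-coding genes of GENCODE 44 whose symbols start with UBE2, out of 20046 protein-coding genes. A poly(A) site cluster (PAC), a group of neighbouring mRNA 3′ ends, was given to a gene when its dominant site, the position with the most tags, lay in the span of that gene on the same strand. By this rule 32 of the 37 genes held 58 of the 17627 PACs listed in the series. Among the 32, UBE2F-SCLY is a readthrough gene that carries the PACs of UBE2F and 1 PAC shared with SCLY. Its values repeat those of UBE2F except in the TE-1 control, where it was at 22.3 RPM and UBE2F at 19.1 RPM.

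The data are 4 poly(A) site sequencing (PAS-seq) libraries of esophageal squamous cell carcinoma (ESCC) cells, a method that reads the 3′ ends of mRNAs and so counts transcripts by the site where they are cleaved. KYSE30 and TE-1 are established ESCC lines, and each gave 1 library after 20 mM l-lactate for 24 h and 1 control library with PBS. The cell line labels of both control samples read KYSE32 and TE-3, while their titles name KYSE30 and TE-1, and the titles were followed. The study asked which genes change their poly(A) site when lactate is added. Dose and time are those stated in a figure legend of the study.

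Tags per library ranged from 7174991 to 10393799, and levels are tags scaled to equal library totals (RPM) and summed over the PACs of a gene. Each transcript is counted at its end, so no correction for length applies. A PAC was listed only above a minimum, and the lowest listed value was between 1.06 and 1.12 RPM in the 4 libraries. Of 10 markers of squamous epithelium 6 were listed, with a summed level of 1157 and 997 RPM in KYSE30 and 225 and 275 RPM in TE-1 cells. TP63, KRT5, KRT14 and DSG3 were at 0 in all 4 libraries. EPCAM stood at 635 and 563 RPM in KYSE30 against 36.4 and 30.7 RPM in TE-1 cells, SOX2 was listed in KYSE30 cells only, and KRT17 in TE-1 cells only. Of the markers of other cells, PTPRC, CD3E, PECAM1 and VIM were at 0, CD68 was at 3.48 to 15.2 RPM, CDH5 was listed in KYSE30 cells only (11.2 and 16.2 RPM), and COL1A1 and PDGFRB in TE-1 cells only (4.14 to 6.85 RPM). The lines therefore differ in epithelial markers beside every difference between lines given here, and the part of this in those differences was not tested.

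Ubiquitin reaches its substrates in a relay. An E1 enzyme activates it, an E2 enzyme carries it as a thioester, and an E3 ligase brings the loaded E2 and the substrate together. The E2 has a large say in which chain is built, and some members carry a ubiquitin-like protein in its place, such as NEDD8 or ISG15.

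Many E2 transcripts had several ends. Of the 31 members with a PAC in an annotated 3′ UTR, leaving out UBE2F-SCLY, 17 had 2 or more there (54.8%), against 28.2% of the 10190 protein-coding genes with such a PAC. The minor PACs of a low gene can miss the minimum for listing. Members and other genes were not matched for level, and the part of level in this difference was not tested. Most members with several PACs had 2 (11 genes), 5 genes had 3, and UBE2N had 4. The libraries of KYSE30 cells listed 55 of the 58 PACs each, and those of TE-1 cells 51 with l-lactate and 52 in the control, with 48 listed in all 4. Outside 3′ UTRs, UBE2V1 had a PAC of 1.35 to 2.72 RPM in an intron, and UBE2G2 had a further PAC of up to 4.72 RPM toward the 5′ end of the gene that was not listed in the KYSE30 control.

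Cleavage is directed by a poly(A) signal, mostly AAUAAA, a short way before the site, and cleavage factor Im binds UGUA further upstream. In the 50 nt before the dominant site, AATAAA was found for 39 of the 58 E2 PACs (67.2%) against 66.4% of 17621 PACs, ATTAAA alone for 9 (15.5% against 16.7%), and neither for 10 (17.2% against 16.9%). TGTA lay within 100 nt of 36 E2 PACs (62.1%) against 57.0% of all. All 3 motifs were searched on the transcribed strand only. For the motifs, the 58 E2 PACs included the PAC of UBE2R2 just past its gene end and left out the PAC shared with SCLY. The E2 PACs carried these letters about as often as PACs in general.

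The sites on which the results turn are printed below as the 30 nt that end at the dominant site, 5′ to 3′ on the transcribed strand, from the GRCh38 reference, with AATAAA and ATTAAA in capitals. UBE2K and UBE2H are shown because their PACs were used in different proportions in the lines, UBE2J1 and UBE2B because a dominant site moved, UBE2L3 because its distal site straddles the annotated gene end, and UBE2N because its main site has neither signal.
UBE2K proximal, chr4:39778589-39778618, plus strand: tgctctgtaAATAAAgctaATTAAAcgtct
UBE2K middle, chr4:39779963-39779992, plus strand: atactagaagcAATAAAagaaccattatta
UBE2K distal, chr4:39782760-39782789, plus strand: aaaAATAAAtgcatgcatgttttcccctga
UBE2H proximal, chr7:129832794-129832823, minus strand: gttcaaacAATAAAaaattgtattttttca
UBE2H distal, chr7:129830736-129830765, minus strand: cttttttaAATAAAcgtgtatataccttgg
UBE2J1 upstream dominant site, chr6:89328070-89328099, minus strand: aactttAATAAAttcgcattttaaaggtgt
UBE2J1 downstream dominant site, chr6:89327140-89327169, minus strand: tgtttaagccAATAAActtttcaaaattta
UBE2B dominant site in KYSE30, chr5:134390624-134390653, plus strand: gacagaatatacacattttgtaaatctgta
UBE2B dominant site in TE-1, chr5:134390749-134390778, plus strand: aaagctgttaaaatacataacttcagtgca
UBE2L3 distal in KYSE30, chr22:21624006-21624035, plus strand: gcccgtAATAAAaatgctctcagacactgg
UBE2L3 distal in TE-1, chr22:21623998-21624027, plus strand: gttctgctgcccgtAATAAAaatgctctca
UBE2N main, chr12:93409357-93409386, minus strand: tgttttagtaaaatattttttgttattcta

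Levels ranged widely among the listed members. The libraries are described for each member as l-lactate, then control, first in KYSE30 and then in TE-1 cells. UBE2C, which starts ubiquitin chains for the anaphase-promoting complex in mitosis, was the highest on average, at 389 and 386 RPM in KYSE30 and 574 and 488 RPM in TE-1 cells. UBE2D3, a general-purpose E2 that serves many RING E3 ligases, was nearly level in all 4 libraries, at 301, 279, 309 and 307 RPM. UBE2V1, a catalytically inactive partner of UBE2N, was at 241, 246, 262 and 267 RPM. At the low end, UBE2L6 and UBE2Q2 were listed in KYSE30 cells only, and UBE2Q2 at 3.35 and 3.23 RPM did not reach the 5 RPM in at least 1 library that a gene needed to be tested. That left 31 members tested, UBE2F-SCLY among them.

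No PAC was listed for UBE2S, UBE2U, UBE2QL1, UBE2L5 and UBE2NL. UBE2S extends the chains that UBE2C starts. Other genes that dividing cells use, PLK1, ANAPC2 and FZR1, were listed at 0 too, so a gene listed at 0 is given here without a level.

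**Figure D1:**
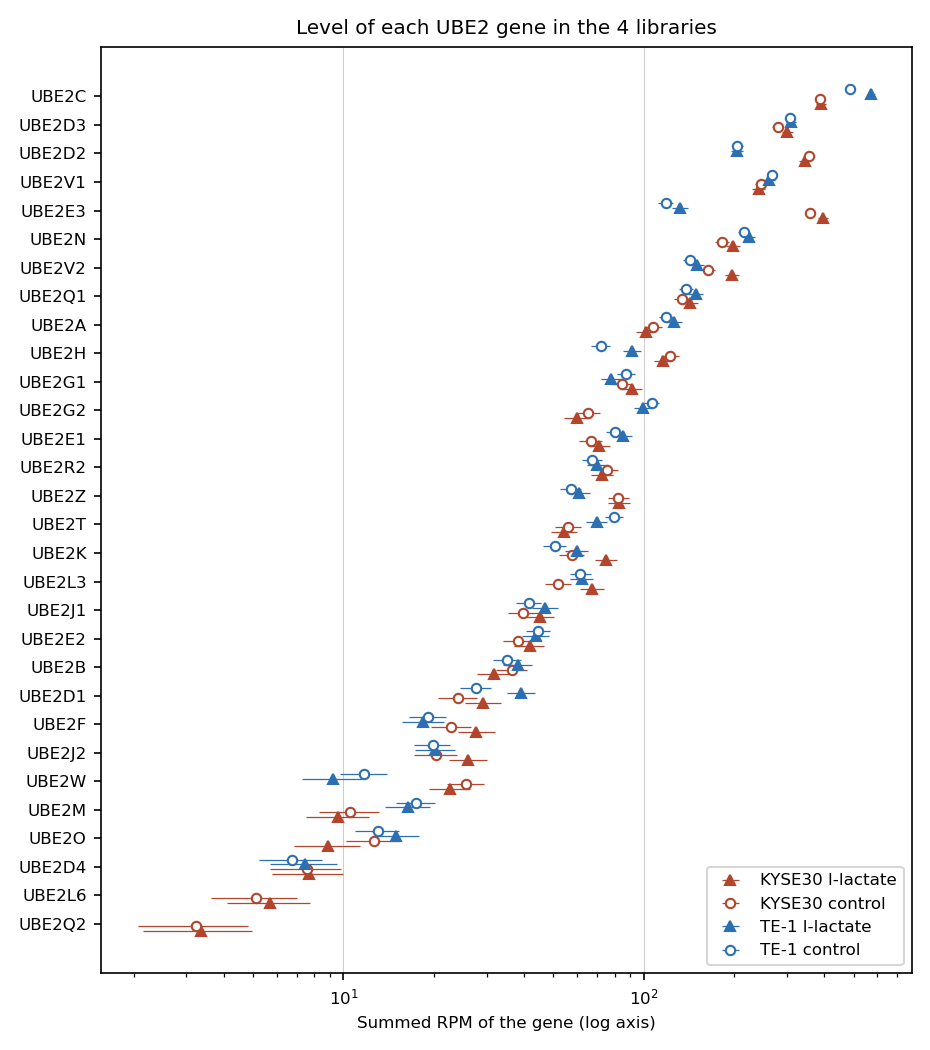
Summed RPM (log axis) of 30 UBE2 genes with a listed PAC, in the 4 libraries, ordered by mean, with bars for the 95% counting interval. UBE2E3, UBE2D2 and UBE2W sit lower in both TE-1 libraries (blue) than in both KYSE30 libraries (red), while the l-lactate (triangles) and control (circles) libraries of a line lie close together. UBE2L6 and UBE2Q2 have no points for TE-1 cells, where they were not listed.

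To ask whether l-lactate changed the levels of E2 transcripts, each line was compared by size alone, with 1 library per condition, and both lines together with limma, with line as a term and l-lactate as the effect. The differences were small. Of 31 members tested, 0 passed 1.5-fold in either direction in KYSE30 cells, where 5.45% of all 10024 genes did, and 0 passed it in TE-1 cells, against 5.05%. The limma test called 0 members at an adjusted p under 0.05 and 6 of 10024 genes (0.0599%). The lowest adjusted p of a member was 0.544, and 2 members, UBE2K and UBE2D1, had an unadjusted p under 0.05, as did 877 genes in all.

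Members with wide differences are given by value, and UBE2D1, UBE2V2, UBE2J2 and UBE2O among them were picked after their values were seen. UBE2K, which builds degradative ubiquitin chains, was at 75.1 RPM with l-lactate and 57.5 RPM in the control of KYSE30 cells, and at 59.9 and 50.6 RPM in TE-1 cells. It was higher with l-lactate in both lines, with log2 differences of 0.38 and 0.24 on the log2(RPM + 1) scale and an adjusted p of 0.544 by limma. UBE2D1, a general-purpose E2, was at 29.1 against 24.1 RPM in KYSE30 and 39.1 against 27.6 RPM in TE-1 cells. It was also higher in both, and its difference in TE-1 cells (log2 0.49) was the highest of any member.

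UBE2E3, another general-purpose E2, was at 395 against 357 RPM in KYSE30 and 132 against 118 RPM in TE-1 cells, so that the l-lactate library was the higher by log2 0.15 and 0.16. UBE2V2, the other inactive partner of UBE2N, was at 197 against 163 RPM and 151 against 142 RPM. For UBE2K and UBE2E3 the counting interval of the ratio lay above 0 in both lines, and the share of all genes with this in both lines was not counted.

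UBE2W, which attaches ubiquitin to the N-terminus of proteins, was at 22.6 against 25.6 RPM in KYSE30 and 9.21 against 11.7 RPM in TE-1 cells. It was lower with l-lactate in both lines, with log2 differences of -0.17 and -0.32, the second being the lowest of any member in TE-1 cells, and its counting intervals held 0 in both. The TE-1 control holds a distal PAC of 1.64 RPM that was not listed with l-lactate, which is part of that difference. The proximal PAC, listed in both, was at 9.21 RPM with l-lactate and 10.1 RPM in the control of TE-1 cells. The other 4 members that were lower in both lines, UBE2T, UBE2G2, UBE2M and UBE2V1, had log2 differences from -0.18 to -0.03.

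Other members differed mainly in 1 line. UBE2L3, which works with HECT and RBR ligases, was at 67.3 against 51.8 RPM in KYSE30 and 62.2 against 61.6 RPM in TE-1 cells, with log2 differences of 0.37 and 0.01. UBE2J2, an E2 of the endoplasmic reticulum membrane, had 0.34 and 0.03. UBE2H had -0.08 and 0.35, and UBE2C 0.01 and 0.23. UBE2O, a large enzyme that joins E2 and E3 functions, was at 8.92 against 12.7 RPM in KYSE30 and 15.0 against 12.99 RPM in TE-1 cells, opposite in direction. Whether the lines differed in their response was not tested, since a line has 1 library per condition.

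Counting error alone, as a 95% interval of the ratio of tags, left 0 outside for 7 of 31 members above and 1 below in KYSE30 cells, where 12.6% of all genes lay above and 11.2% below. In TE-1 cells it did so for 5 above and 2 below, against 18.1% and 11.4% of all genes. These intervals do not hold the spread between cultures. Over the members, 14 were higher in both lines, 5 lower in both and 12 neither. Of all genes, 29.1% were higher in both and 20.6% lower in both. The sign alone was counted, so values near 0 can turn with the scaling of the libraries. UBE2D3 in TE-1 cells went from log2 0.01 to -0.04 with another scaling. The median log2 difference across the lines was 0.06 for the members and 0.02 for all genes.

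**Figure D2:**
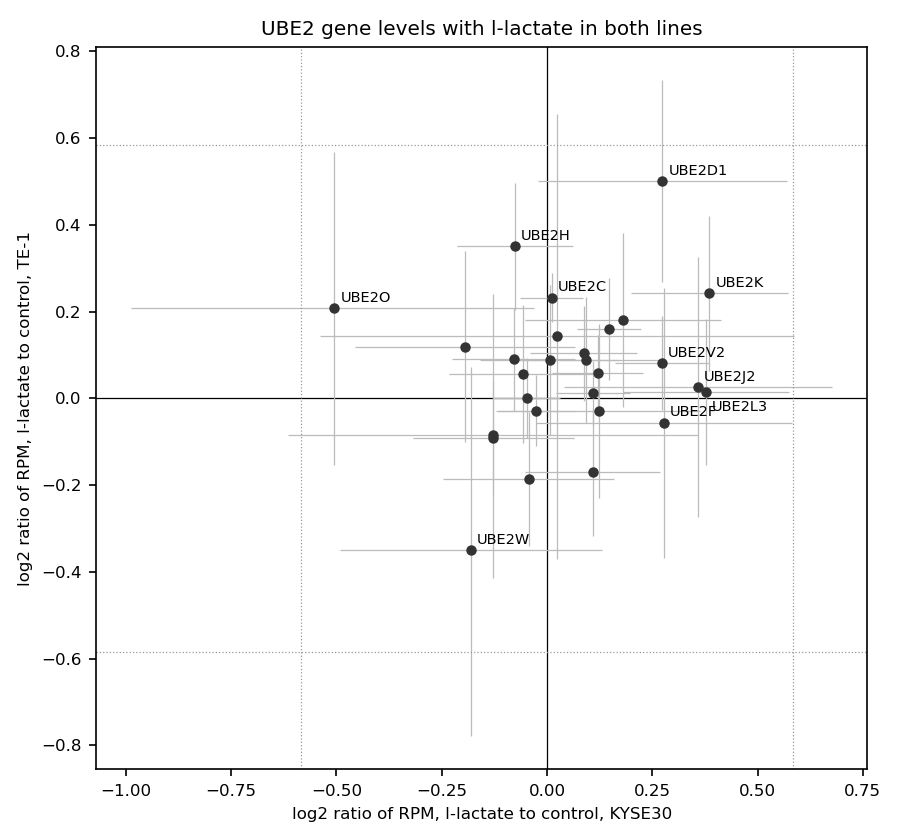
log2 ratio of RPM, l-lactate to control, of the tested UBE2 genes drawn, in KYSE30 cells (horizontal) and TE-1 cells (vertical), with grey bars for the 95% counting interval and dotted lines at 1.5-fold. UBE2F-SCLY and UBE2L6, which was not listed in TE-1 cells, are among those left out. All points lie within 1.5-fold in both lines, and UBE2K lies farthest to the right and UBE2D1 farthest up.

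Between the lines the differences were larger. The limma test of TE-1 against KYSE30 cells, with treatment as a term, called 17 of 31 members at an adjusted p under 0.05 (54.8%), 7 higher and 10 lower in TE-1 cells. Of all 10024 genes 72.9% were called, 36.1% higher and 36.8% lower. The median absolute log2 difference was 0.26 for the members and 0.68 for all genes. Only 3 members were called with a difference of 2-fold or more, where 35.9% of all genes passed both. All 3, UBE2L6, UBE2E3 and UBE2W, were lower in TE-1 cells. UBE2L6 reached the 5 RPM needed for the test in KYSE30 cells only and was not listed in TE-1 cells. Its direction was therefore set by the choice of genes to test. With 1 culture per library, these p-values rest on how far the line difference varied between the treatments, moderated over genes, and not on the spread between cultures.

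Among the 8 general-purpose members, 3 were lower in TE-1 cells, 1 higher and 4 not called. UBE2E3 showed the largest difference of the members listed in all 4 libraries, log2 -1.58 (SE 0.07) with an adjusted p of 1.27e-06 by limma. UBE2D2, from the same group of broad partners of RING ligases, was at 343 and 355 RPM in KYSE30 and 205 RPM in both TE-1 libraries, log2 -0.77 (SE 0.06) with a limma adjusted p of 3.42e-05. Its close relative UBE2D3 was not called (log2 0.09, SE 0.07), nor were UBE2D1, UBE2D4 and UBE2E2. UBE2W was at 22.6 and 25.6 RPM in KYSE30 and 9.21 and 11.7 RPM in TE-1 cells. Both TE-1 libraries were below both of KYSE30 cells, with log2 -1.14 (SE 0.15), but its PACs also lie in the span of another annotated gene, ENSG00000258677, on the same strand. UBE2E1 was higher in TE-1 cells, at 71.1 and 66.7 RPM against 85.3 and 80.1 RPM (log2 0.26, SE 0.08, limma adjusted p 0.0250).

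Of the members of DNA damage signalling and histone ubiquitination, 3 of the 6 tested were higher in TE-1 cells and 1 was lower. UBE2T, the E2 of the Fanconi anemia pathway, was at 54.4 and 56.0 RPM in KYSE30 and 69.9 and 79.5 RPM in TE-1 cells (log2 0.43, SE 0.09). UBE2A, a RAD6 homologue that ubiquitinates PCNA and histone H2B, was at 102 and 107 RPM against 126 and 119 RPM (log2 0.23, SE 0.08). Its paralogue UBE2B was at 31.8 and 36.4 RPM against 38.1 and 35.1 RPM and was not called. UBE2N, which builds signalling chains, was at 198 and 182 RPM against 224 and 215 RPM (log2 0.21, SE 0.07). Of its 2 inactive partners, UBE2V2 was lower (log2 -0.29, SE 0.08) and UBE2V1, whose PACs are shared with the readthrough gene PEDS1-UBE2V1, was not called. The differences among the 3 genes were not tested.

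UBE2C was higher in TE-1 cells with log2 0.45 (SE 0.07) and a limma adjusted p of 9.6e-04. Other proliferation genes went both ways, with 5 of 9 tested higher and 3 lower in TE-1 cells. The part of growth in the UBE2C difference was not tested.

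The members for NEDD8 were both called. UBE2M, an E2 of NEDD8, was at 9.62 and 10.5 RPM in KYSE30 and 16.4 and 17.4 RPM in TE-1 cells, log2 0.70 (SE 0.16) with a limma adjusted p of 0.00531. UBE2F, the other E2 of NEDD8, was at 27.7 and 22.9 RPM against 18.4 and 19.1 RPM, lower in TE-1 cells with log2 -0.41 (SE 0.14) and a limma adjusted p of 0.0349. Between the controls alone its log2 difference was -0.25 and the counting interval of the ratio, -0.56 to 0.05, held 0. The overlapping UBE2F-SCLY was not called (limma adjusted p 0.131). UBE2L6, the E2 of the interferon-induced protein ISG15, was at 5.71 and 5.12 RPM in KYSE30 and was not listed in either TE-1 library. Its fitted log2 difference of -2.68 depends on the pseudocount and is no bound.

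Of the 4 members of the endoplasmic reticulum, UBE2G2 alone was called. This E2 of protein degradation at that membrane was at 59.8 and 65.3 RPM in KYSE30 and 99.7 and 106 RPM in TE-1 cells, log2 0.71 (SE 0.08), the highest of all members. UBE2J1, at 45.0, 39.7, 46.9 and 41.4 RPM, was not called, nor were UBE2G1 and UBE2J2.

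Among the remaining members 3 of 6 tested were lower in TE-1 cells and 0 higher. UBE2H, the E2 of the CTLH ligase, was at 116 and 122 RPM in KYSE30 and 91.6 and 71.9 RPM in TE-1 cells (log2 -0.55, SE 0.11). UBE2Z, which takes ubiquitin from UBA6, was at 82.8 and 82.4 RPM against 60.8 and 57.1 RPM (log2 -0.48, SE 0.09). UBE2K was lower by less (log2 -0.25, SE 0.09, limma adjusted p 0.0428). UBE2Q1 was at 143, 134, 149 and 139 RPM and was not called, nor were UBE2R2 and UBE2O.

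**Figure D3:**
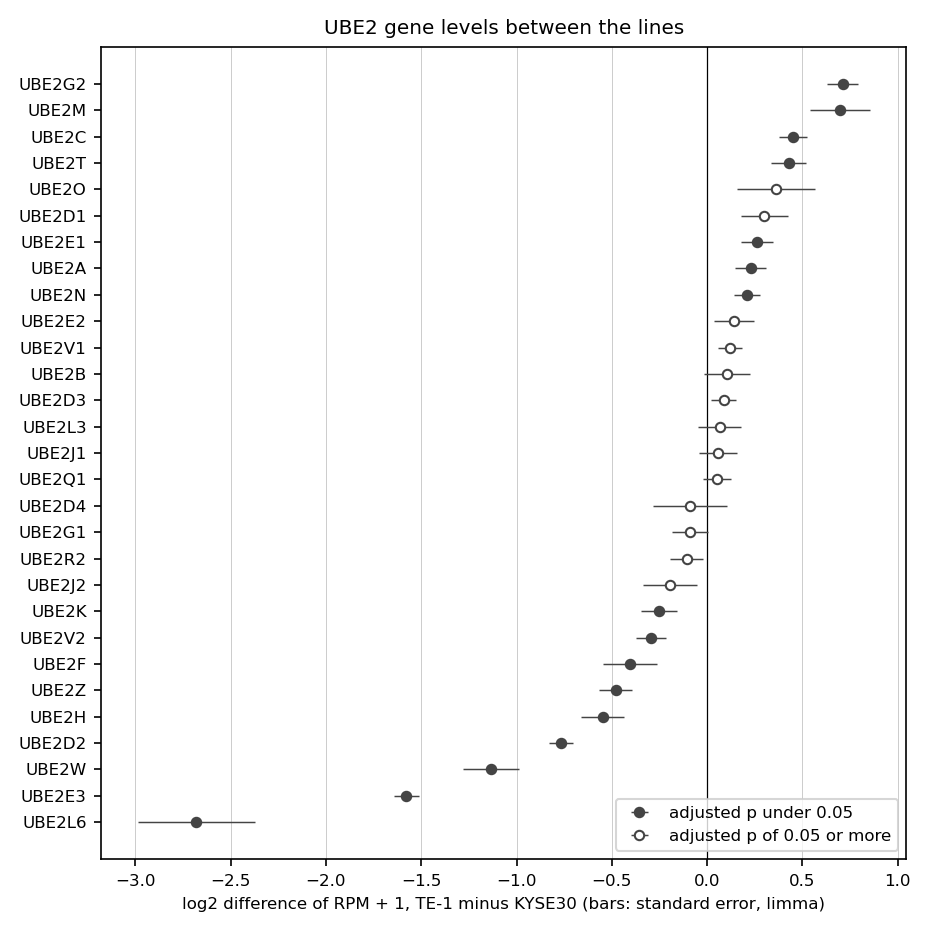
Difference of log2(RPM + 1), TE-1 minus KYSE30, of the tested UBE2 genes, UBE2F-SCLY among those left out, with the standard error of limma as bars. Filled points have an adjusted p under 0.05, and they run from -2.68 for UBE2L6, which was not listed in TE-1 cells, to 0.71 for UBE2G2.

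The enzymes before and after the E2 step were counted in the same fit. Of 7 E1 genes tested, 3 were higher and 2 lower in TE-1 cells, with UBA1, the main E1 of ubiquitin, at 148 and 145 RPM in KYSE30 and 384 and 393 RPM in TE-1 cells. None of the 4 ubiquitin genes was called. Of 24 E3 ligase genes 8 were higher and 9 lower, and of 7 genes with an E2 fold and another symbol, 2 were higher and 1 lower. The median log2 difference with l-lactate ran from -0.02 to 0.07 over these 4 lists.

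The use of distal 3′ UTR sites was taken as the share of tags in the most distal PAC, over the 3′ UTR PACs above 5 RPM in at least 1 library. It could be measured for 14 members. For 2 members the annotated gene end cut through the data. The distal PAC of UBE2R2, an E2 of cullin-RING ligases, has its dominant site 3 nt past the gene end in all 4 libraries. That of UBE2L3 has its dominant site 1 nt past the gene end (chr22:21624035) in KYSE30 and inside the gene (chr22:21624027) in TE-1 cells. The PAC spans both positions in all 4 libraries, so the lines differ in which of them led. Shares of these genes are therefore also given with the span extended by 1 kb, an alternative added after the data were seen, which brings the members to 15.

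**Figure D4:**
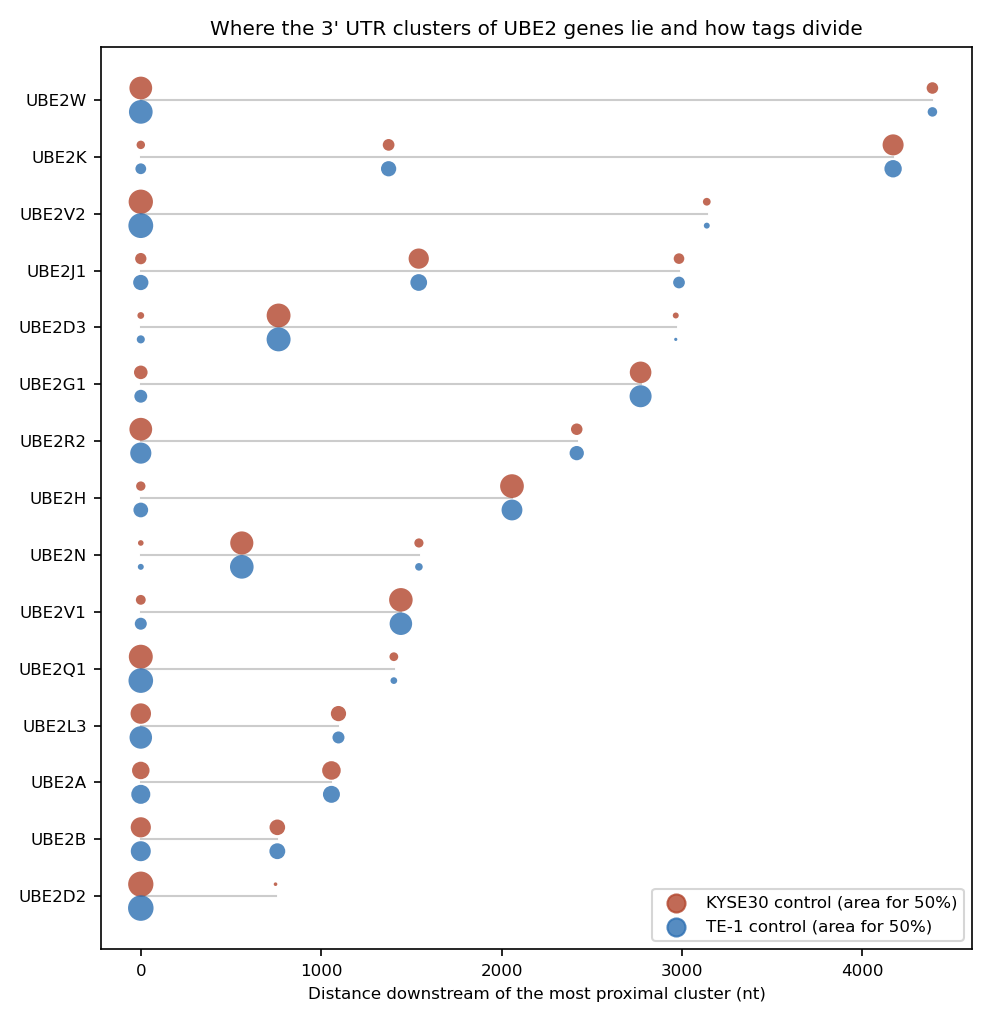
Position of the 3′ UTR PACs of 15 UBE2 genes, as the distance in nt downstream of the most proximal PAC, with the area of a circle for the share of tags in the KYSE30 control (red) and the TE-1 control (blue). The outer sites lie 747 nt apart in UBE2D2 and 4389 nt apart in UBE2W, and the red circle at the distal end is the larger for UBE2K and UBE2H.

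In UBE2A the distal PAC led in both KYSE30 libraries and the proximal PAC in both TE-1 libraries, and in UBE2K the middle PAC led in TE-1 cells with l-lactate, with 44.8% of tags against 40.8% in the distal PAC. In the other 13 genes the same PAC held the most tags in all 4 libraries. Distal sites held most of the tags of UBE2V1 (85.1% and 77.9% in the controls of KYSE30 and TE-1 cells), UBE2H and UBE2G1, while UBE2D2, UBE2D3 and UBE2V2 used theirs for under 10% of tags in every library. UBE2N placed 82.2% to 85.7% of its tags in the middle of 3 PACs, the one with neither signal.

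With l-lactate, distal usage changed by 10 percentage points or more in 0 of 14 members in KYSE30 cells, against 11.2% of 2034 genes. In TE-1 cells it did so in 1 of 14, against 12.6% of 2032 genes. That member was UBE2W, lower by 13.9 percentage points, where 5.76% of genes were lower. It rests on 17 of 122 tags in the TE-1 control, and the distal PAC was not listed with l-lactate. The lowest listed PAC of the TE-1 l-lactate library had 9 tags. By the methods of the study, a PAC of a single site needed a higher level. Tags below the minimum may lie there, so the size of the fall is not known. In KYSE30 cells the same share was 21.6% with l-lactate and 20.5% in the control.

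Smaller differences had the same direction in both lines for 13 of 15 members, 7 lower and 6 higher with l-lactate, against 58.2% of 2111 genes with the same direction. These counts take the sign alone, whatever the size. In KYSE30 cells the difference was only 0.05 points for UBE2J1, -0.13 points for UBE2B and 0.26 points for UBE2D2. For UBE2D2 the control of TE-1 cells held tags in the proximal PAC alone, so the size of its rise there is not known. A shared response to l-lactate was not tested. The distal share of UBE2V2, picked after its values were seen, was 4.59% with l-lactate (95% Wilson interval 3.62% to 5.81%) and 9.23% in the control (7.73% to 10.99%) of KYSE30 cells. In TE-1 cells it was 2.04% (1.40% to 2.97%) and 5.41% (4.37% to 6.68%). Both lines had the lower share with l-lactate and intervals that did not overlap, which no other member showed in both. How many of all genes did so was not counted. The distal PAC was at 9.06 RPM with l-lactate and 15.1 RPM in the control of KYSE30 cells, and at 3.07 and 7.70 RPM in TE-1 cells, while the proximal PAC was at 188 and 148 RPM, and at 147 and 135 RPM.

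UBE2K had a distal share of 62.2% with l-lactate and 67.9% in the control of KYSE30 cells, and of 40.8% and 46.4% in TE-1 cells. Its middle PAC was at 19.9 RPM with l-lactate and 12.1 RPM in the control of KYSE30 cells, and at 26.8 and 18.1 RPM in TE-1 cells. The distal PAC was at 46.7 and 39.1 RPM, and at 24.4 and 23.5 RPM. UBE2H showed 83.4% against 86.5% and 59.9% against 66.7%. UBE2V1 went the other way, with 87.3% against 85.1% and 82.0% against 77.9%. Within a line the intervals of UBE2K and UBE2H overlapped, as did those of UBE2V1 in KYSE30 cells.

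**Figure D5:**
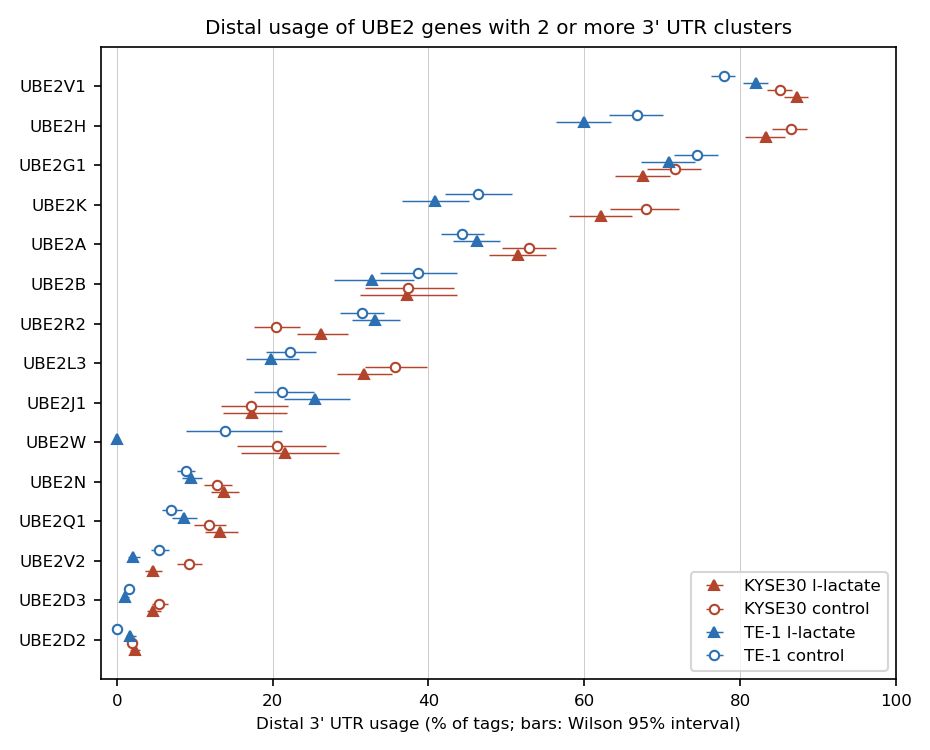
Distal 3′ UTR usage in percent of tags for 15 UBE2 genes in the 4 libraries, with 95% Wilson intervals for counting error, UBE2R2 and UBE2L3 taken with the span extended by 1 kb. UBE2K and UBE2H lie 19.8 to 23.4 percentage points lower in TE-1 cells (blue) than in KYSE30 cells (red), and points at 0 are libraries where the distal PAC was not listed.

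Between the controls, 3 of 14 members differed by 10 percentage points or more, against 34.2% of 1989 genes. Of these genes 9.4% were higher and 24.8% lower in TE-1 cells, and of the 3 members 1 was higher and 2 lower. UBE2K was lower in TE-1 cells by 21.5 percentage points, 46.4% (42.2% to 50.7%) against 67.9% (63.3% to 72.2%). UBE2H was lower by 19.8 points, 66.7% (63.2% to 70.1%) against 86.5% (84.1% to 88.6%). The l-lactate libraries differed in the same direction, with -21.3 and -23.4 points, so that both TE-1 libraries lay below both KYSE30 libraries for each gene. In UBE2K the proximal PAC was at 8.50, 6.33, 8.62 and 9.04 RPM. Within each treatment the proximal and middle PACs were the higher in TE-1 cells and the distal PAC the lower.

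The third member was UBE2L3, and its difference turned with the gene end. By the gene span its distal PAC counted 0 tags in KYSE30, and TE-1 cells were 22.2 points higher. With the 1 kb extension the shares were 31.7% with l-lactate and 35.7% in the control of KYSE30 and 19.7% and 22.2% in TE-1 cells, so that TE-1 cells were lower, with -13.5 points between the controls. UBE2R2, at 26.3% and 20.4% in KYSE30 and 33.2% and 31.4% in TE-1 cells, was higher in TE-1 cells by 11.01 points between the controls. Smaller differences held for UBE2A (51.4% and 53.0% in KYSE30 cells against 46.2% and 44.3% in TE-1 cells), UBE2V1, UBE2Q1 and UBE2N. UBE2Q1 was at 13.3% and 11.8% against 8.56% and 6.94%, and UBE2N at 13.8% and 12.9% against 9.58% and 8.84%. In both treatments TE-1 cells had the lower share in 11 of the 15 members, a count for which no share over all genes was taken. Among the 11, the distal PACs of UBE2D2, UBE2D3 and UBE2W passed the 5 RPM minimum in KYSE30 cells only. For these genes a lower share in TE-1 cells was partly set by the choice of PACs. The median difference between the controls was -4.07 points over the members and -2.83 points over all genes measured in the same way.

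The dominant site within a PAC was mostly fixed. With l-lactate, 0 of 44 E2 PACs above 5 RPM in both libraries moved by more than 24 nt in KYSE30 cells (1.43% of all PACs compared), and 1 of 42 did so in TE-1 cells (1.24%). That PAC is the middle one of UBE2J1, an E2 of the endoplasmic reticulum membrane. Its dominant site was chr6:89328070 in the TE-1 control, with 38.4% of its 185 tags, and chr6:89327140 with l-lactate, with 47.4% of 173 tags, 930 nt downstream. In both KYSE30 libraries it was chr6:89328070, with 55.7% of tags under l-lactate and 60.2% in the control. The PAC spans both sites in each library, so the move is a change in which of them led, and both have AATAAA 18 and 14 nt before them.

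Between the controls 2 of 42 PACs moved (2.06% of all PACs compared), and between the l-lactate libraries 2 of 40 did (1.96%). The proximal PAC of UBE2B was led by chr5:134390653 in both KYSE30 libraries (37.8% and 39.1% of tags) and by chr5:134390778 in both TE-1 libraries (42.9% and 40.2%), 125 nt downstream. Neither site has AATAAA or ATTAAA in the 50 nt before it. The proximal PAC of UBE2N was led by chr12:93409882 in the KYSE30 control and by chr12:93409917, 35 nt upstream, in the other 3 libraries, on 28 to 122 tags.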

How the data were processed

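PAS-seq libraries from KYSE30 and TE-1 cells were analysed, 1 per line and condition. Per the methods of the study, the authors trimmed the reads, aligned them to GRCh38 with HISAT2 and called poly(A) sites with CAGEr (versions not given in the sources used here), left out sites of low abundance and joined neighbouring sites into PACs. The submitters' processing notes name GRCh38.p14. Values deposited by the authors are RPM, the tags of a PAC scaled to a fixed total per library. Positions of dominant sites and of the 0.1 and 0.9 quantiles were used as deposited.

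PACs were placed on GENCODE 44 genes by dominant site and strand, with Python 3.11.15 and pandas 2.3.3. Tags were recovered as whole numbers from the spacing of RPM values. KYSE30 libraries had 7174991 (l-lactate) and 7425554 tags (control), and TE-1 libraries had 8468958 and 10393799. They served for Wilson and counting intervals at 95%, which cover counting error only. Genes with at least 5 RPM in 1 library or more (10024) were tested on log2(RPM + 1), with a pseudocount of 1, by limma 3.58.1 in R 4.3.3 with a trend, terms for line and treatment, 1 residual degree of freedom and Benjamini-Hochberg adjustment over all genes tested. A log2 difference on this scale understates the change of low genes. Within a line no test was made. There, 1.5-fold, 10 percentage points and 24 nt were rules of size. On simulated data of 10024 genes, 82 of 89 genes changed 2-fold and 111 of 111 changed 4-fold were recovered for l-lactate, with 5 false calls, and 94 of 106 and 94 of 94 for the line, with 2 false calls. The simulated tags were drawn around the mean level of each gene, with a fixed dispersion that was not estimated from these libraries. These rates check the fit and do not give its power in the data, where the spread between cultures is not known.

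The members, their roles, the other gene lists and the rule for named genes were chosen with earlier results of these data known. Levels in all 4 libraries were given for the 6 members with the highest mean RPM, up to 6 called members in each direction between lines, and members with changed distal usage or a moved dominant site. Alternatives were other pseudocounts, minimums, scalings, placements and thresholds. Values of 1 member and of 1 gene of the other lists are not reported or drawn here, while the counts over the members hold that member.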

Additional observations from a re-analysis of the deposited data

Results flagged for a closer look

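The values here come from PACs whose dominant site lies just past the annotated end of a gene, outside the span by which PACs were counted, and so do not enter the levels given above. For UBE2R2 this PAC, 3 nt past the end, held 25.9 RPM with l-lactate and 19.4 RPM in the control of KYSE30 cells, and 34.8 and 30.9 RPM in TE-1 cells. For UBE2L3 it held 29.1 and 26.9 RPM in KYSE30 cells, 1 nt past the end, while the same PAC in TE-1 cells, with 12.3 and 13.7 RPM, fell inside the gene and was counted.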

How the results depend on the processing

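Of the results that answer a comparison, 70 values under the alternatives kept their direction and stayed within 1.5 times the value reported, and 15 did not. Of the single genes, 310 values were counted as unchanged, 1 as moved and 3 as reversed. That count lets a small log2 difference change in size or sign. For UBE2D3 with l-lactate in TE-1 cells, it was 0.01 as reported and -0.04 with another scaling of the libraries. At a lower fold threshold, 4 members passed with l-lactate in KYSE30 cells (3 higher, 1 lower) and 2 in TE-1 cells. Members with changed distal usage numbered 1 in KYSE30 cells with a minimum of 1 RPM or with 5 percentage points. In TE-1 cells they numbered 4 with 5 percentage points, and 0 with 20 percentage points, with a minimum of 10 RPM, with PACs listed in both libraries and with PACs chosen within the line, since the call on UBE2W rests on a PAC under 10 RPM that was not listed with l-lactate. Between lines 6 members passed 5 percentage points. With shifts of any length 4 PACs moved in KYSE30 cells and 5 between the controls. With a minimum of 1 RPM, 1 moved in KYSE30 cells, and between the controls 1 did so by more than 100 nt or with a minimum of 10 RPM. With the span extended by 1 kb, added after seeing the data, UBE2L3 turned from higher to lower in TE-1 cells. Its log2 difference between the controls was -0.35, and its distal usage -13.5 points between the controls and -11.9 points between the l-lactate libraries. With l-lactate in KYSE30 cells its distal usage was -4.05 points. Members called between lines numbered 15 to 18 over 8 alternatives. For l-lactate 0 members were called under 7 alternatives, while the count over all genes ran from 0 with the extended span to 38 with a pseudocount of 5 RPM. The planned count models on the recovered tags were not run. Leaving out a library would leave no residual degrees of freedom, and no such fit was made. The line term of the limma fit pairs the l-lactate and control library of each line, and the labels give no replicate numbers for any other pairing. Depth limits the distal sites of low genes. The lowest listed PAC had 8 to 11 tags by library, and by the methods of the study a PAC of a single site needed a higher level.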
